A study of Mus musculus with 17 samples.

Results

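The interferon-stimulated antiviral genes described here were 37 genes, chosen by name as known targets of interferon signalling and found as 37 of the 23719 entries of a count table from mouse colon. Colon explants of male C57BL/6 mice aged 32 to 34 weeks were compared between 9 Control mice given water and 8 GWI mice, a model of Gulf War illness. The GWI mice drank water with pyridostigmine bromide (PB), which blocks acetylcholinesterase reversibly, at a dose of 2 mg/kg over 7 days, then had 21 days without it, and colons were collected at day 30. The study asks which changes persist in the colon after a short exposure, and its methods do not name the tissue layers in each explant. Total counts ranged from 16293537 to 20741212 per mouse, and all 37 members passed the filter on low counts, among 14146 tested genes.

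Type I and type III interferons are secreted when cells detect viral or other foreign nucleic acid, and type II interferon comes mainly from activated T and NK cells. The former act through JAK kinases on a complex with STAT2 and IRF9, which binds the interferon-stimulated response element, and type II interferon acts on the gamma-activated sequence. The induced genes block viral replication at many steps, and in the gut both the epithelium and resident immune cells express them at a low tonic level without infection.

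Some libraries stood apart from the others. Control 6 and Control 7 had 2677 and 5695 counts of Fabp6, an ileal bile acid-binding protein, and 3379 and 5239 counts of Anpep, an enterocyte peptidase, where no other mouse exceeded 133 counts of Fabp6 or 214 of Anpep. In Control 9 the 10 most abundant genes took 23.1% of counts, the highest share of any mouse. Control 8 lay above the control mean in 34 of 37 members, with a median difference of 0.53 on the log2 scale. Control 1 was the highest mouse of its group for, among others, Oas1a, Oas1g, Oas2, Oasl1 and Mx1. Colon markers were abundant in both groups, with a summed level of 18400 to 39700 CPM (counts scaled to the size of the library) in controls and 19800 to 36800 CPM in GWI mice for 11 epithelial genes, led by Car1. Control 1 and GWI 5 had the lowest Car1 of their groups, at 1990 and 3860 CPM, and 0 counts of Gzma, a T and NK cell gene. Their summed T and NK cell level was 2.59 and 2.14 CPM, where the next lowest mouse, Control 6, had 9.66. GWI 5 was also the highest GWI mouse for Oas1a, Oas1g, Oasl1 and Mx1.

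The members did not move together. Log2 fold changes, given as GWI against Control, were negative for 17 members and positive for 20, with a median of 0.18, beside a median of -0.056 over all tested genes. In the quasi-likelihood test of edgeR, with p-values adjusted by Benjamini-Hochberg over all tested genes, 3 members were lower at an adjusted p-value under 0.05, where 13.5% of all tested genes were lower. A further 7 were higher, where 13.4% of all tested genes were higher. Without Control 6 and Control 7 the members gave 3 lower and 5 higher, beside 9.56% and 10.1% of all tested genes. Without Control 1 and Control 9 they gave 3 and 10, beside 19.6% and 19.7%, and without all 4 of these mice again 3 and 10, beside 16.4% and 18.2%. In 2 members, Ifit3 and Ifit3b, every GWI mouse lay below every control mouse, which held for 0.523% of tested genes, and in 0 members did every GWI mouse lie above every control mouse, which held for 1.83%.

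**Figure D1:**
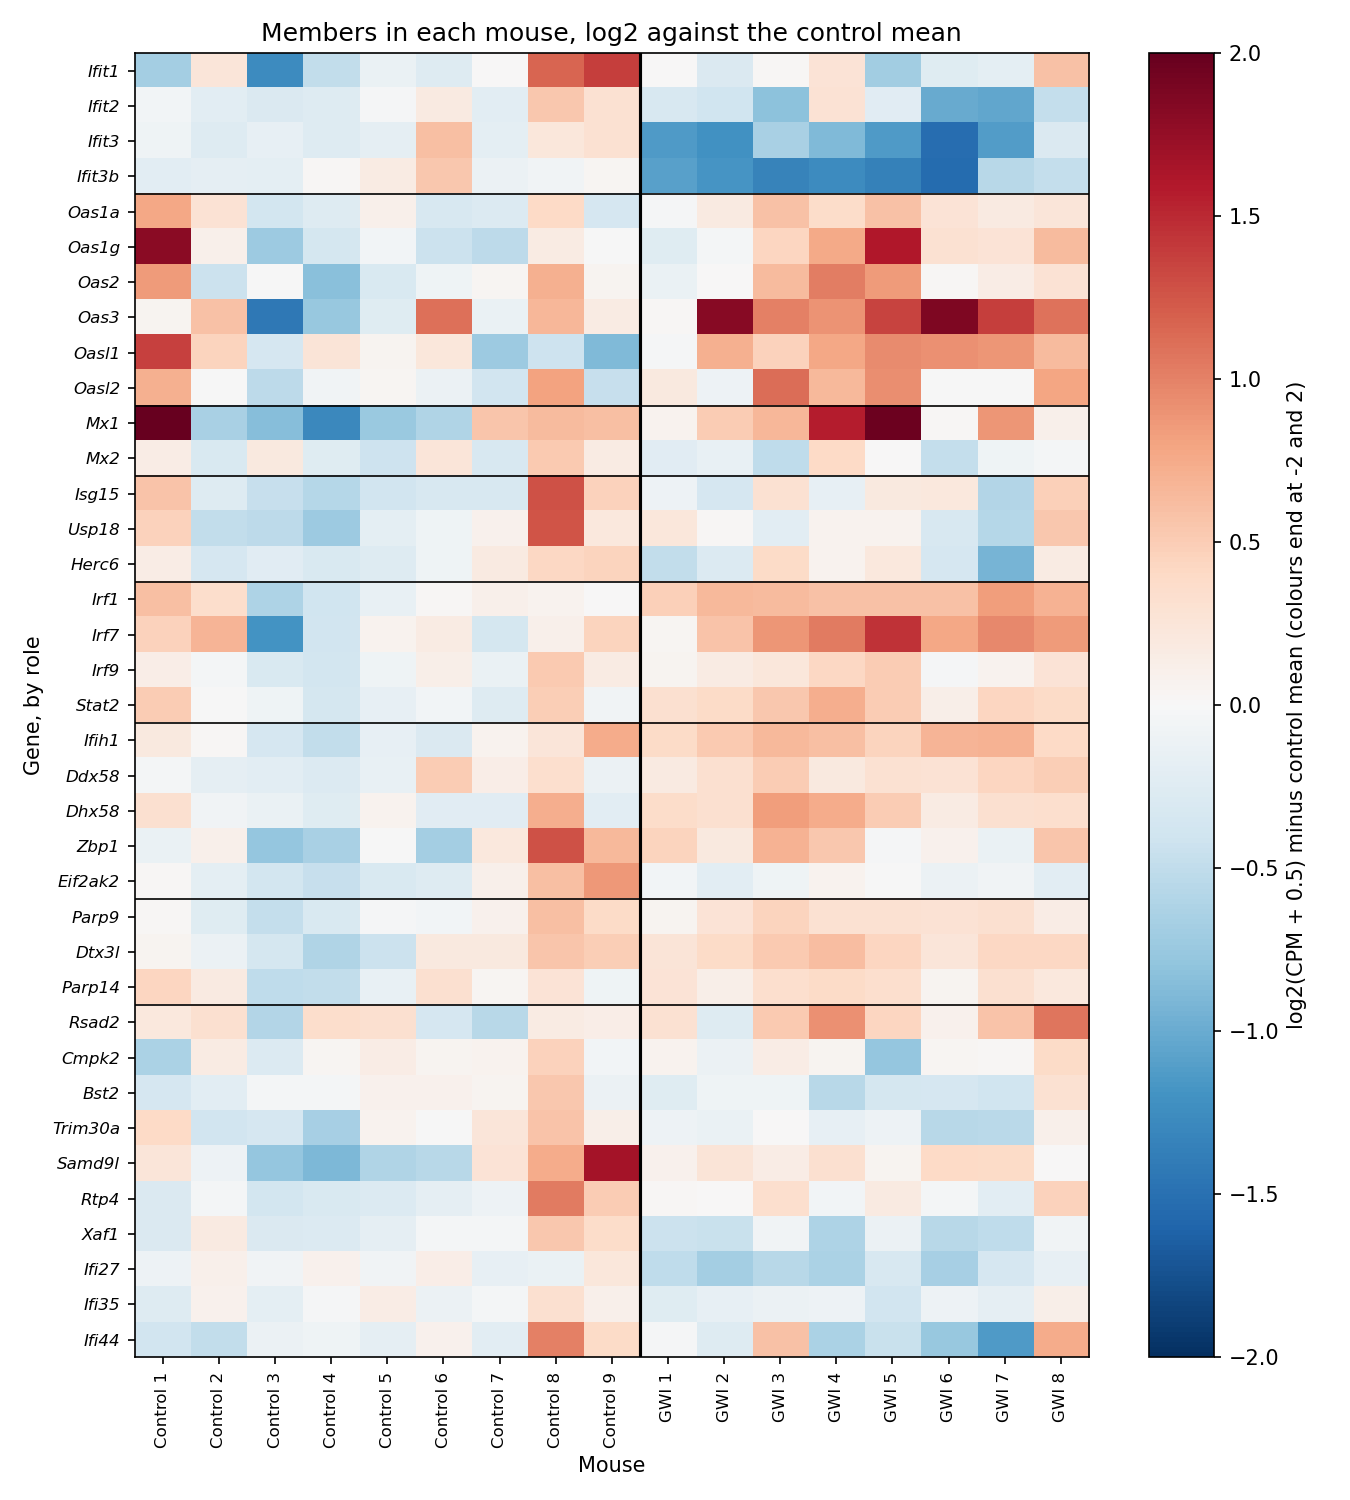
Level of each of the 37 members (listed by role) in each of the 17 mice (columns), as log2(CPM + 0.5) minus the control mean, with colours ending at -2 and 2. Ifit3 and Ifit3b are low in the GWI mice, and Control 8 is high for most members.

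Tissue markers also differed between the groups. Of 10 smooth muscle genes, 7 were lower in GWI colons and 0 higher, beside 13.5% and 13.4% of all tested genes, and their log2 fold changes had a median of -0.91. Their summed level ran from 3690 to 23900 CPM, with a median of 11600, in control mice and from 3660 to 11800 CPM, with a median of 5140, in GWI mice, and Myh11 was the most abundant. Of 11 epithelial genes, 5 were higher and 0 lower. In bulk tissue, fewer cells of a type and less RNA per cell cannot be told apart. With a score of muscle minus epithelium markers as a covariate, 0 members were called higher by edgeR, 3 had an unadjusted p under 0.05 in that direction, and of the 10 called members only Ifit3 and Ifit3b kept their call, where 7.53% of all tested genes were lower and 4.06% higher. This score ran from 0.41 to 2.7 in Control 1 to Control 7, and was -0.492 in Control 8 and -0.279 in Control 9. In GWI mice it ran from -1.86 to 0.0696. The score followed the groups closely, so a call lost with it cannot tell tissue make-up from the exposure. Oas3 and Ddx58 lost their calls with differences about as large and larger standard errors, Oas3 at 1.16 without the score and 1.03 with it and Ddx58 at 0.33 and 0.40. The other differences were smaller with the score, with Irf7 at 0.78 and 0.59, Irf1 at 0.60 and 0.41, and Ifi27 at -0.48 and -0.36. Ifih1 was at 0.51 and 0.05, Stat2 at 0.41 and 0.25, and Dhx58 at 0.47 and 0.19. In the same model Eif2ak2 and Samd9l passed as lower, at -0.59 and -0.87, against -0.15 and -0.02 without the score. By limma-voom Samd9l passed as higher, at 0.74, so its direction depended on the model. By limma-voom with sample quality weights 6 members were called lower and 19 higher, beside 29.5% and 27.6% of all tested genes. By the DESeq2 Wald test the members gave 5 and 7, beside 12.2% and 11.0% of 19717 genes. That base was not cut by the filter on low counts, so these shares are not on the same base as the others.

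**Figure D2:**
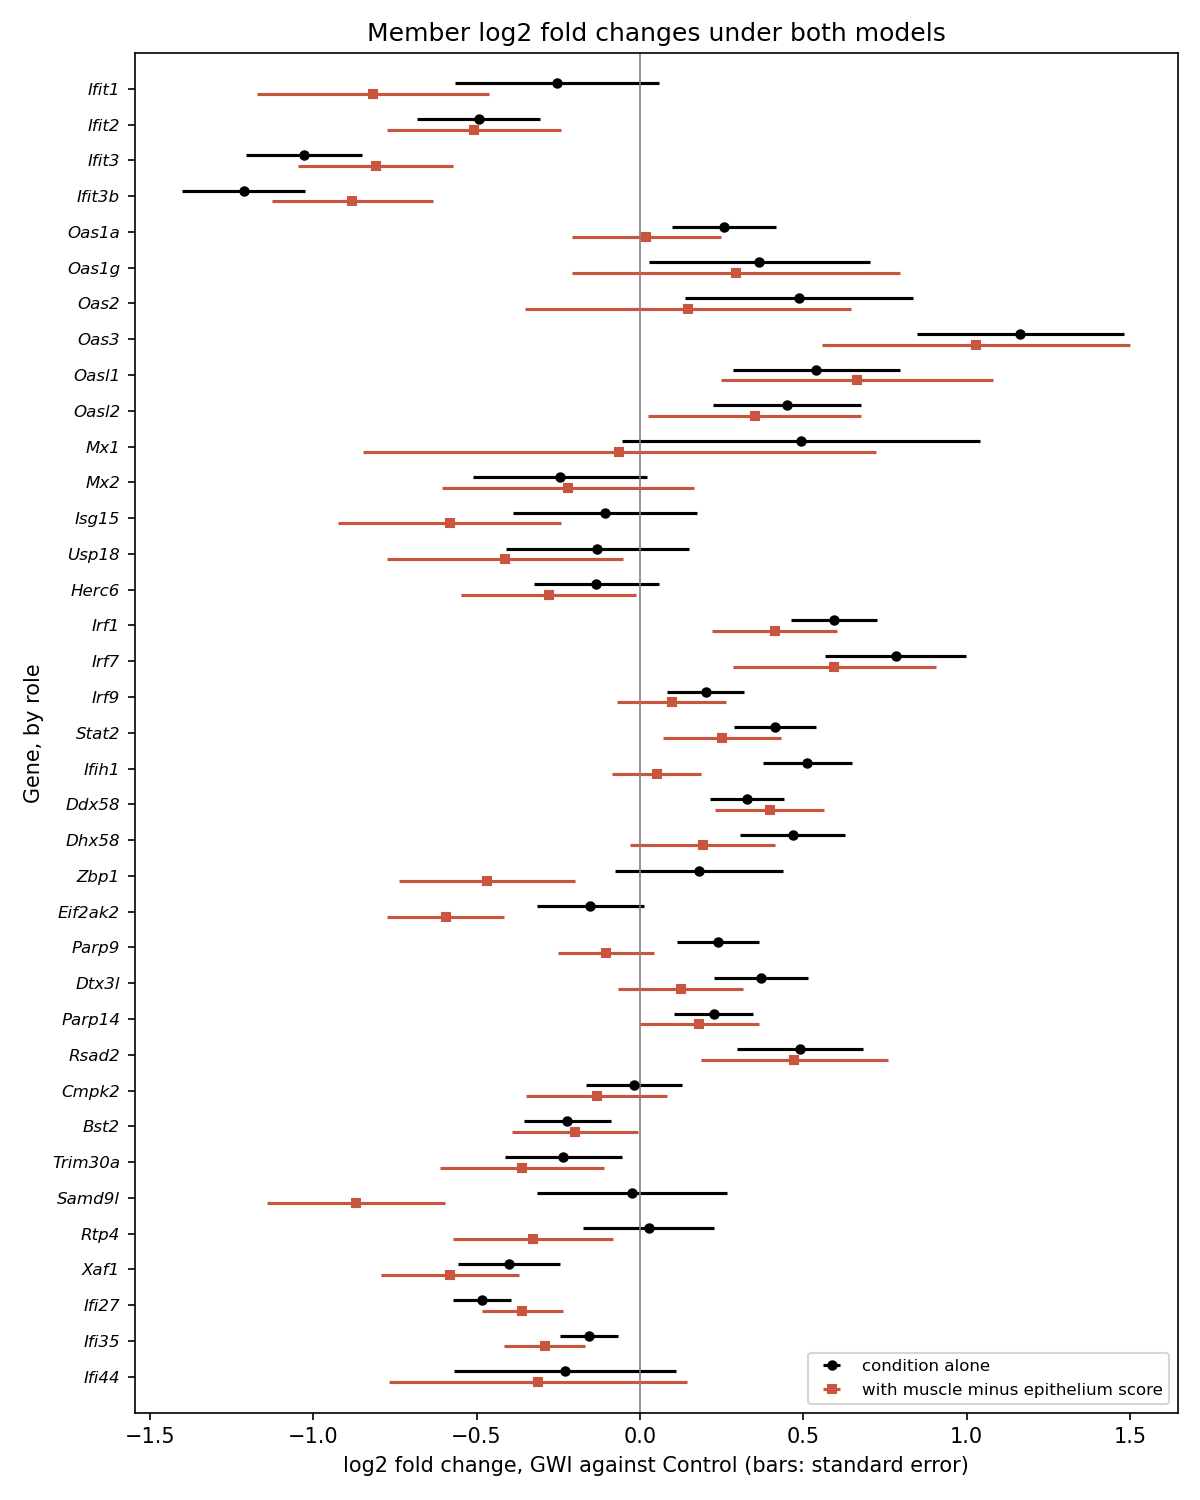
Log2 fold change of each member, GWI against Control (horizontal axis; bars are standard errors), from the fit with the condition alone (circles) and with the muscle minus epithelium score (squares). Ifit3 and Ifit3b lie below 0 in both, while Ifih1 is at 0.51 in the first and 0.05 in the second, Oas3 at 1.16 and 1.03, and Ddx58 at 0.33 and 0.40.

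The IFIT proteins bind viral RNA that lacks host cap marks and stop its translation, and their genes lie side by side on chromosome 19. Ifit3b (ENSMUSG00000062488.9, chromosome 19, 34607970 to 34613401) had 4.93 CPM in the lowest control mouse, a median of 5.45 and 8.64 in the highest, against 1.66, 2.19 and 3.98 CPM in GWI mice. All 8 GWI mice lay below all 9 control mice. GWI mice differed from controls by a log2 fold of -1.21 (standard error, SE, 0.19; edgeR, adjusted p = 0.000673). Ifit3 (ENSMUSG00000074896.3, chromosome 19, 34583531 to 34588731), a close relative of Ifit3b in the same cluster, had 11.1, 11.7 and 20.3 CPM as the lowest, median and highest control values and 4.30, 5.82 and 10.8 CPM in GWI mice. The groups did not overlap here either, although GWI 8 came close to the lowest control mouse. The log2 ratio of GWI to Control was -1.03 (SE 0.18; edgeR, adjusted p = 0.0012). Exact 50-base windows of Ifit3 transcripts occurred in Ifit3b transcripts for 51.2% of windows, so the counts of this pair are uncertain and the pair is not 2 separate observations. Both kept an adjusted p under 0.05 in all 17 fits with 1 mouse removed and in all 15 other alternatives, where the highest values, with the muscle score, were 0.0401 for Ifit3 and 0.0356 for Ifit3b.

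The other IFIT genes did not share this separation. Ifit2, which promotes apoptosis of infected cells, had 8.57, 10.2 and 15.6 CPM in controls and 4.91, 7.65 and 13.0 CPM in GWI mice. Of the GWI mice 6 lay below every control mouse, and GWI 4 lay above the control median. On the log2 scale the difference came to -0.49 (SE 0.19; edgeR, adjusted p = 0.0588). Ifit2 passed as lower by the DESeq2 Wald test, by limma-voom, with upper-quartile factors and without GWI 4. Ifit1, the cap-sensing member, had 7.38, 16.7 and 48.2 CPM in controls and 11.1, 17.2 and 27.6 CPM in GWI mice, so the GWI values lay inside the control range, and its adjusted p was 0.553 by edgeR. Ifit1 had a log2 fold change of -0.25, and -0.82 with the muscle score (adjusted p = 0.127 by edgeR). Control 8 and Control 9 were the control mice above every GWI mouse for Ifit1.

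The OAS proteins make 2′-5′ oligoadenylate on double-stranded RNA and so activate RNase L, while OASL1 lacks this activity. All 6 had positive log2 fold changes (median 0.47), as did 6340 of the 14146 tested genes. Of the 6, 1 passed edgeR's test as higher, where 13.4% of all tested genes were higher. All 6 passed as higher by limma-voom with quality weights, where 27.6% of all tested genes were higher. Oas3, the sensor of long double-stranded RNA, had 1.77, 5.81 and 12.5 CPM as the lowest, median and highest control values and 5.73, 13.7 and 21.7 CPM in GWI mice. Every control mouse lay below 4 GWI mice, and GWI 1 lay just below the control median. GWI mice differed from controls by a log2 fold of 1.16 (SE 0.32; edgeR, adjusted p = 0.0135), and the call held in 17 of 17 fits with 1 mouse removed but not with the muscle score (1.03, SE 0.47, adjusted p = 0.148) or the leukocyte score (0.72, adjusted p = 0.106), with 0.000437 as the lowest adjusted p over the other alternatives. Oasl1 and Oasl2 had log2 fold changes of 0.54 and 0.45, with adjusted p-values of 0.119 and 0.14 by edgeR. Oas1a and Oas1g had 0.26 and 0.37, with adjusted p-values of 0.227 and 0.425 by edgeR, and 57.6% of the 50-base windows of Oas1a occurred in Oas1g, so their counts are uncertain. Oas2 was near the detection floor, with 4 to 31 counts in control mice and 13 to 37 in GWI mice, and its adjusted p was 0.299 by edgeR. Several of these values depended on single mice. Without Control 1, Oas1a, Oas1g and Oasl1 passed edgeR's test, with log2 fold changes of 0.39, 0.80 and 0.81, and without GWI 5 Oas1g was at 0.13 (adjusted p = 0.783 by edgeR).

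The Mx GTPases form rings around viral nucleocapsids, and C57BL/6 mice carry a defective Mx1 gene. Mx1 had 0.446, 1.02 and 11.3 CPM in controls and 1.83, 2.97 and 8.45 CPM in GWI mice. All 8 GWI mice lay above the control median, and Control 1 lay above all of them. The log2 ratio of GWI to Control was 0.49 (SE 0.55; edgeR, adjusted p = 0.509), and it was 1.23 with an adjusted p of 0.0334 without Control 1 and 0.22 with an adjusted p of 0.786 without GWI 5. Mx1 also passed as higher by limma-voom, without Control 1 and 9, and without Control 1, 6, 7 and 9. Mx2 had 7 to 25 counts in every mouse and an adjusted p of 0.503 by edgeR. Shared windows between Mx1 and Mx2 came to 3.86% and 4.38% of each.

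ISG15 is a ubiquitin-like modifier, USP18 removes it and also dampens the type I receptor, and HERC6 attaches it in the mouse. None of these genes was called. Isg15 had 2.17, 2.70 and 9.08 CPM in controls and 2.15, 3.63 and 5.05 CPM in GWI mice. The GWI values lay almost wholly within the control range, in which Control 8 stood far above the rest. On the log2 scale the difference came to -0.11 (SE 0.28; edgeR, adjusted p = 0.795) and became 0.16 without Control 8. With the muscle score Isg15 was at -0.58 (adjusted p = 0.257 by edgeR). Usp18 and Herc6 had adjusted p-values of 0.748 and 0.615 by edgeR, and Usp18 also changed sign without Control 8, to 0.15.

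Of the 4 transcription factors of the response 3 were called higher and 0 lower, beside 13.4% and 13.5% of all tested genes, and all 3 calls were lost with the muscle score. Irf1, which is itself induced by type II interferon, had 72.4, 114 and 171 CPM in controls and 156, 171 and 201 CPM in GWI mice. Of the control mice 8 lay below every GWI mouse, and Control 1 was level with the GWI median. GWI mice differed from controls by a log2 fold of 0.60 (SE 0.13; edgeR, adjusted p = 0.0048). Irf7, the factor that amplifies interferon production, had 32.3, 79.9 and 120 CPM in controls and 76.0, 136 and 203 CPM in GWI mice. Every control mouse lay below 6 GWI mice, and GWI 1 lay below the control median. The log2 ratio of GWI to Control was 0.78 (SE 0.22; edgeR, adjusted p = 0.0144). Stat2, the signal transducer of type I and type III receptors, had 16.9, 20.8 and 31.1 CPM in controls and 23.8, 29.1 and 36.2 CPM in GWI mice. Control 1 and Control 8 lay within the GWI range, and the other 7 control mice lay below it. On the log2 scale the difference came to 0.41 (SE 0.13; edgeR, adjusted p = 0.0227). Irf9, the DNA-binding part of the STAT complex, had 17.2, 21.8 and 32.3 CPM in controls and 21.9, 25.7 and 31.8 CPM in GWI mice, with an adjusted p of 0.203 by edgeR. All 8 GWI mice lay above the control median of Irf9, and Control 8 lay above all of them. Irf9 passed as higher by limma-voom. With the muscle score Irf1 was at 0.41 (SE 0.19, adjusted p = 0.151 by edgeR), Irf7 at 0.59 (SE 0.31, 0.201) and Stat2 at 0.25 (SE 0.18, 0.356). These p-values were the highest of each gene's alternatives, and the lowest were 1.34e-05, 0.000607 and 8.11e-05. Irf7 also lost its call with the leukocyte score. Stat2 kept its call in 10 of 15 alternatives and 16 of 17 fits with 1 mouse removed, and lost it with upper-quartile factors, in the replicate block, without Control 5 and 6, without Control 6 and 7, and without GWI 4. Exons of Irf1 and Irf7 overlap genes on the opposite strand over 3.40% and 1.19% of their bases, and the strand setting of the counting is not given in the sources used here.

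The cytosolic sensors detect viral nucleic acid and start the response. Ifih1, which encodes MDA5, had 37.8, 54.6 and 89.7 CPM in controls and 69.9, 79.3 and 87.4 CPM in GWI mice. Of the control mice 8 lay below every GWI mouse, and Control 9 lay above all of them. GWI mice differed from controls by a log2 fold of 0.51 (SE 0.14; edgeR, adjusted p = 0.0123). Ddx58, which encodes RIG-I, had 13.8, 15.3 and 24.0 CPM in controls and 19.1, 21.0 and 23.9 CPM in GWI mice. Of the control mice 7 lay below every GWI mouse and Control 6 lay above all of them. The log2 ratio of GWI to Control was 0.33 (SE 0.11; edgeR, adjusted p = 0.0392). Dhx58, which encodes LGP2, had 4.18, 4.52 and 8.56 CPM in controls and 5.68, 6.55 and 9.34 CPM in GWI mice, a log2 ratio of 0.47 (SE 0.16; edgeR, adjusted p = 0.0401). Control 8 was the high control mouse for Dhx58, and 7 of 9 control mice lay below every GWI mouse. Exons of Dhx58 overlap Dhx58os on the opposite strand over 4.31% of their bases. The calls of Ddx58 and Dhx58 stood close to the threshold, and held in 8 and 6 of the 17 fits with 1 mouse removed and in 8 and 7 of the 15 other alternatives. Both were lost with library size alone, upper-quartile factors, no filter, the replicate block and the muscle score. Ddx58 was also lost with the leukocyte score and without Control 1 and 9, and Dhx58 without Control 5 and 6, without Control 6 and 7, and without Control 1, 6, 7 and 9. Ifih1 kept its call in all 17, and with the muscle score its adjusted p was 0.819, the highest of its alternatives, whose lowest was 1.84e-06. Zbp1, a sensor of left-handed nucleic acid, and Eif2ak2, the kinase PKR, had adjusted p-values of 0.613 and 0.5 by edgeR. For both the control group reached higher than the GWI group, up to 27.1 CPM against 17.9 for Zbp1 and up to 82.2 CPM against 47.2 for Eif2ak2. Zbp1 passed as higher by limma-voom.

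**Figure D3:**
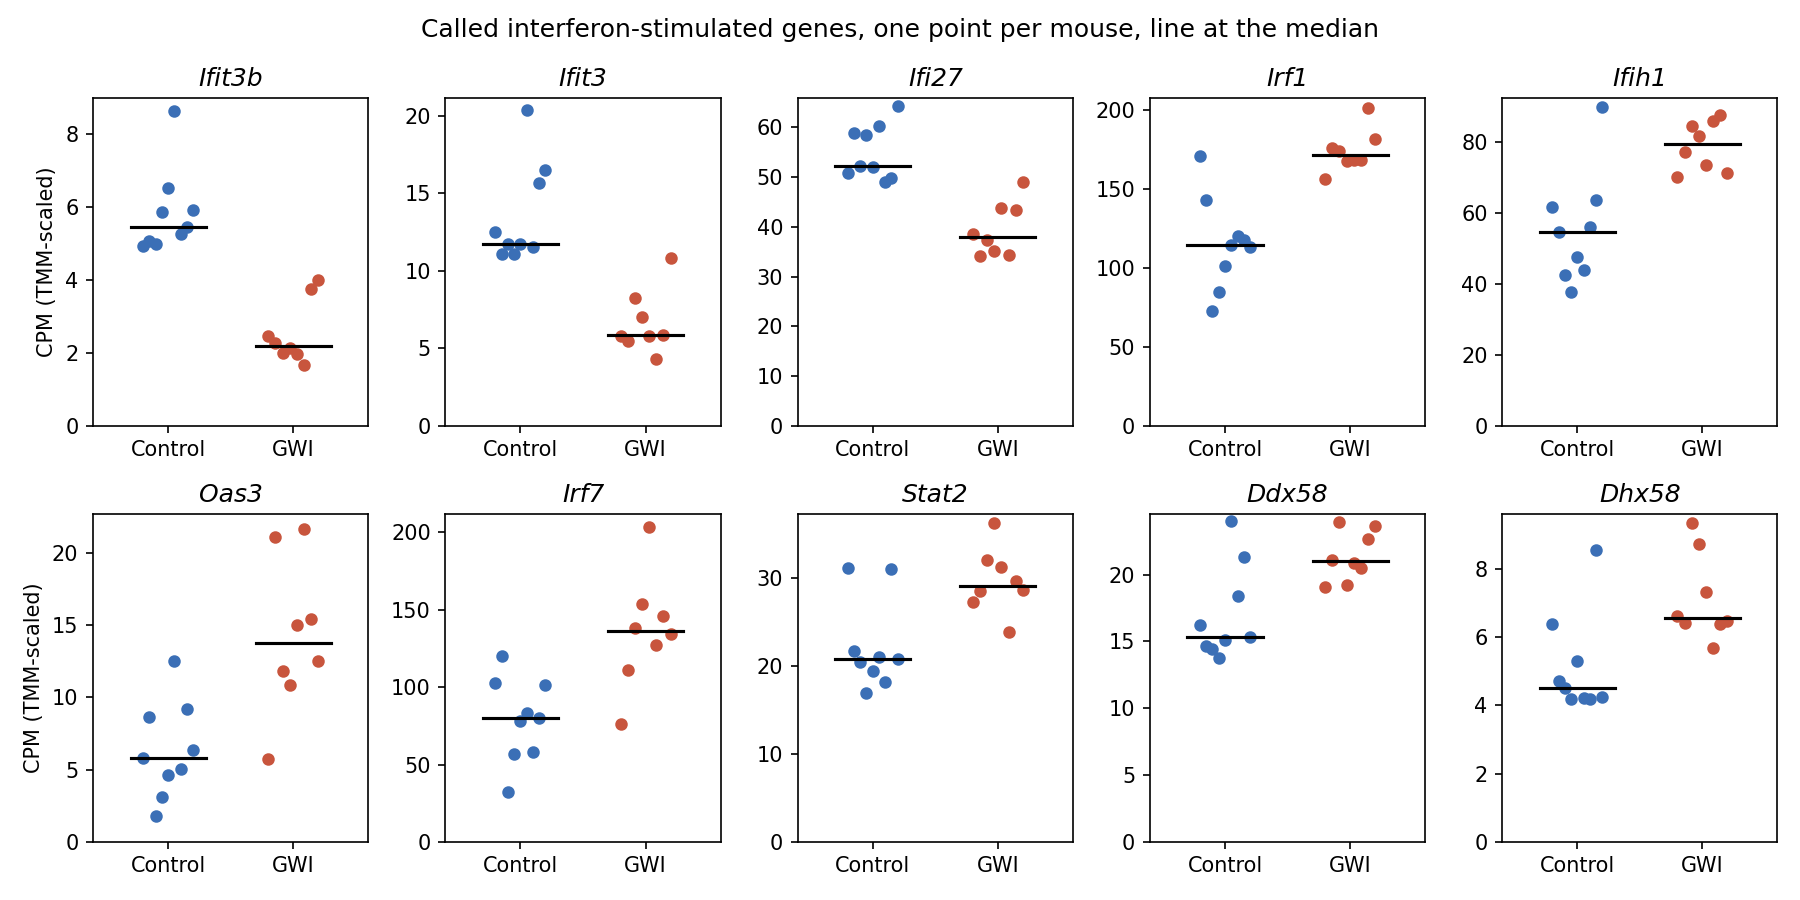
CPM of the 10 called members in each mouse (1 point per mouse, line at the median, vertical axis from 0). The 3 lower genes stand first, and only Ifit3b and Ifit3 show no overlap between the groups.

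PARP9 and its ligase partner DTX3L modify histones, and PARP14 is a related ADP-ribosyltransferase. All 3 had positive log2 fold changes, 0.24 for Parp9, 0.37 for Dtx3l and 0.23 for Parp14, and none was called, with adjusted p-values of 0.159, 0.0631 and 0.169 by edgeR. All 3 passed as higher by limma-voom. Dtx3l also passed with library size alone and without Control 8, Control 9, Control 1 and 9, or Control 1, 6, 7 and 9, Parp9 without Control 8, and Parp14 without Control 1, 6, 7 and 9. For each of them all 8 GWI mice lay above the control median. Parp9 and Dtx3l share 458 exon bases on opposite strands, so reads there cannot be assigned without strand.

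Among the remaining 10 members 1 was called, as lower, where 13.5% of all tested genes were lower. Ifi27 (ENSMUSG00000064215.13, chromosome 12, 103434211 to 103440239), a mitochondrial protein linked to apoptosis, had 49.0, 52.2 and 64.4 CPM in controls and 34.2, 37.9 and 49.0 CPM in GWI mice. Of the GWI mice 7 lay below every control mouse, and GWI 8 lay level with the lowest, Control 7. On the log2 scale the difference came to -0.48 (SE 0.09; edgeR, adjusted p = 0.00152), and it kept its call in all 17 fits with 1 mouse removed and in 14 of 15 other alternatives, the exception being the muscle score with 0.0632, while the lowest was 5.01e-06. Xaf1, which opposes an inhibitor of apoptosis, had 5 GWI mice below every control mouse, -0.40 on the log2 scale and 0.0634 as its adjusted p by edgeR. It passed as lower by the DESeq2 Wald test, by limma-voom, with upper-quartile factors, without Control 1 and without GWI 8. Rsad2, which encodes viperin, had 5 GWI mice above every control mouse, 0.49 on the log2 scale and 0.0669 as its adjusted p by edgeR. Without GWI 2, Rsad2 passed as higher. Bst2, which tethers budding virus to the cell surface, had 11.6, 14.3 and 21.6 CPM in controls and 9.93, 12 and 18.5 CPM in GWI mice. Its groups overlapped, the adjusted p was 0.215 by edgeR, and Bst2 passed as lower by limma-voom. Cmpk2, Trim30a, Samd9l, Rtp4, Ifi35 and Ifi44 had log2 fold changes between -0.23 and 0.03 and adjusted p-values from 0.191 to 0.96 by edgeR. With upper-quartile factors Ifi35 passed as lower. Samd9l had 363 CPM in Control 9 against at most 192 in any other control mouse.

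Levels between members were compared per kb of exon. The median control level was highest for Ifi27, at 35.6 CPM per kb, followed by Irf1 at 28.7 and Irf7 at 21.2, and lowest for Oas2 at 0.175. In GWI mice Irf1 had 43.0 and Irf7 36.0 CPM per kb, above Ifi27 at 25.8.

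Upstream of the members, type I and type III interferon genes were at or near 0. Of 21 interferon genes 1 passed the filter, Ifng, the type II interferon. Ifng had 323 to 844 counts in Control 1 to Control 8, 9678 counts in Control 9 and 2377 to 9867 counts in GWI mice. The groups overlapped through Control 9 alone. GWI mice differed from controls by a log2 fold of 2.11 (SE 0.73; edgeR, adjusted p = 0.0394), it was called in 3 of the 17 fits with 1 mouse removed, and it was 4.00 with an adjusted p of 9.99e-08 without Control 9. With the muscle score it was 0.67 with an adjusted p of 0.564, the highest of its alternatives. The T and NK cell genes that commonly accompany Ifng did not show this split, with 5 to 41 counts of Cd3e in GWI mice and 6 to 34 in controls. Whether the deposited Ifng values are as the counting program wrote them was not tested, and no statement on the members rests on them.

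Of 6 interferon receptor genes 3 were higher and 0 lower, where, as for the lists that follow, 13.4% of all tested genes were higher and 13.5% lower. Ifnar1, a chain of the type I receptor, had a log2 ratio of 0.35 (SE 0.08; edgeR, adjusted p = 0.00651) and Ifnar2, its partner, -0.28 with an adjusted p of 0.102. Ifngr1 and Ifnlr1, chains of the type II and type III receptors, had 0.50 and 0.83, with adjusted p-values of 0.0383 and 0.0284 by edgeR, and Ifngr2 and Il10rb were not called, at 0.536 and 0.102. With 1 mouse removed Ifngr1 was called in 4 of 17 fits, Ifnlr1 in 10 and Ifnar1 in 17. With the muscle score none of these 3 was called, at 0.14 for Ifnar1, 0.36 for Ifngr1 and 0.46 for Ifnlr1. Among 11 JAK-STAT genes 4 were higher and 0 lower, namely Socs3 at 0.79, Jak1 at 0.26, Ptpn6 at 0.42 and Tyk2 at 0.36 in log2 fold change. Of 17 tested sensing genes 7 were higher and 0 lower, with Traf6 at 0.29, Ticam1 at 0.54, Trim25 at 0.67 and Tbk1 at 0.33. Of 49 other interferon-induced genes 12 were higher and 4 lower. Pml at 0.74, Helz2 at 1.11, Shisa5 at 0.76 and Uba7 at 0.58 were the higher ones with the smallest p-values, and Slfn2 at -0.84, Slfn5 at -0.80, Ifitm3 at -0.85 and Ifitm1 at -0.81 were the lower ones. With the muscle score Ticam1, Pml, Shisa5 and Slfn2 kept their calls, at 0.70, 0.90, 0.75 and -0.68. The calls of Socs3, Jak1, Ptpn6, Tyk2, Traf6, Trim25, Tbk1, Helz2 and Uba7 were lost there, at 0.35, 0.25, 0.26, 0.13, 0.21, 0.54, 0.17, 0.81 and 0.35. So were those of Slfn5 at -0.50, Ifitm1 at -0.32 and Ifitm3, which turned to 0.05. Ticam1 lost its call in the replicate block (adjusted p = 0.0519 by edgeR). Ifitm1 was called in 12 of the 17 fits with 1 mouse removed and in 11 of the 15 other alternatives. All 8 GWI mice lay below every control mouse for Slfn2, which held for 0.523% of tested genes. They lay above every control mouse for Pml and for Daxx, also called higher at 0.38, which held for 1.83%.

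Markers of other cells were mostly negative in log2 fold change, as were 7805 of the 14146 tested genes. Most of these markers were not called, and 13.5% of all tested genes were lower. All 10 macrophage genes were negative (median -0.42), as were all 7 pan-leukocyte genes (median -0.25), all 7 endothelial genes (median -0.67) and 8 of 9 T and NK cell genes (median -0.22). Of 7 pan-leukocyte genes 2 were lower, with a summed level of 40.6 to 85.7 CPM in controls and 38.4 to 60.3 in GWI mice, led by Lcp1. Of 10 macrophage genes 2 were lower, with 72.6 to 167 CPM against 62.7 to 101 CPM, led by Lyz2. Of 7 endothelial genes 3 were lower, with 46.1 to 170 CPM against 47.2 to 97.9 CPM, led by Pecam1. No T and NK cell gene of 9 was called, with 2.59 to 31.9 CPM against 2.14 to 24.6 CPM, led by Gzma. Of 6 genes listed for plasmacytoid dendritic cells 3, Klk1, Tcf4 and Runx2, were tested and 1, Tcf4, was lower. Siglech, Ccr9 and Ly6d did not pass the filter. Klk1 gave most of the summed level, 370 to 2420 CPM in controls and 542 to 1260 in GWI mice, while Siglech stayed under 1 CPM in every mouse. Neither this sum nor Tcf4 is therefore read here as a level of these cells. B cell and neutrophil lists had 1 tested gene of 5 each, neither called. Of 5 tested small-intestine genes 2, Fabp6 and Anpep, were called lower, with Control 6 and Control 7 at 119 and 314 CPM of Fabp6 and 150 and 289 CPM of Anpep. The other control mice had 1.64 to 6.90 CPM of Fabp6, against 0.631 to 5.86 in GWI mice, and 2.86 to 7.96 CPM of Anpep, against 4.10 to 12.3. No listed marker was at 0 in all mice, and apart from the covariates given, their part in the result was not tested.

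RefSeq promoters, 250 bases before to 50 after the start (build GRCm38.p6), were given for 27 of the 37 members, as 31 promoters. GAAANNGAA, a core of the interferon-stimulated response element searched on both strands, occurred in 54.8% of them and in 8.56% of all 32851 promoters. TTCNNNGAA, the core of the gamma-activated sequence, which reads the same on both strands, occurred in 19.4% and in 8.30%. Both occurred together in 3 of the 31 member promoters and in 351 of all 32851. Overlap of sites was looked for only in the 250 bases before the start, where 1 pair, in Bst2, overlapped. The 5 called members with GAAANNGAA before the start are shown, since lower and higher genes both carry it. The 250 bases before the start are printed along the strand of the gene, with matches on either strand in capitals.
Ifit3b, chr19:34607707-34607956, plus strand: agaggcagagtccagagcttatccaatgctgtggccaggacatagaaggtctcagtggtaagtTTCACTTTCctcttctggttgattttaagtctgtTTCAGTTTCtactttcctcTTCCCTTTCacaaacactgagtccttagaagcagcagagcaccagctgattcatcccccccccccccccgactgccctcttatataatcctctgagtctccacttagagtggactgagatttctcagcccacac
Ifit3, chr19:34583279-34583528, plus strand: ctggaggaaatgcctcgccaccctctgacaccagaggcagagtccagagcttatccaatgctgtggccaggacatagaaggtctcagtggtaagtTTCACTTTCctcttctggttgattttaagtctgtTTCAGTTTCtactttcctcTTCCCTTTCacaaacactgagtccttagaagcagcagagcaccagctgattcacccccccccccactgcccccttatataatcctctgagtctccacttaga
Ifih1, chr2:62646256-62646505, minus strand: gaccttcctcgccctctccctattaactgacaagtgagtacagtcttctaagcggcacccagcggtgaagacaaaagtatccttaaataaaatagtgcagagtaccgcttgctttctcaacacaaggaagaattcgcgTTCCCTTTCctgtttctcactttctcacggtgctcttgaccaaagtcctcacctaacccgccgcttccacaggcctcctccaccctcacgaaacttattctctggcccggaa
Oas3, chr5:120777660-120777909, minus strand: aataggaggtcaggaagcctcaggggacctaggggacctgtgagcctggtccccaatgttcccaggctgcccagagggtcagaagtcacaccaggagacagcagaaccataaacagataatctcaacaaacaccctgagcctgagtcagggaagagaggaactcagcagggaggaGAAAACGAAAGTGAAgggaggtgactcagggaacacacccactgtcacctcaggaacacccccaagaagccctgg
Stat2, chr10:128270248-128270497, plus strand: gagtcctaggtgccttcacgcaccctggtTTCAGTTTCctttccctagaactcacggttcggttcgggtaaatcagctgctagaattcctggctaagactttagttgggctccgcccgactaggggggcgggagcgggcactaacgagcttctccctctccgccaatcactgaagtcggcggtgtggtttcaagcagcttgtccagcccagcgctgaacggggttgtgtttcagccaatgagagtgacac

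Ifit3 and Ifit3b, which were lower, held 3 matches each, at 155, 121 and 102 bases and at 187, 153 and 134 bases before the start. Of the higher genes, Oas3 held 2, and Ifih1 and Stat2 held 1 each. Ifit1 and Isg15, which were not called and had negative log2 fold changes, also held 3 each. A match describes letters only.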

How the data were processed

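Per the labels and the study's methods, poly(A)-selected colon RNA was sequenced as paired reads, trimmed with Trimmomatic 0.36, mapped with STAR 2.5.2b to GRCm38 and counted per gene with featureCounts. The authors deposited raw counts without normalization, 23719 entries for 17 mice. Strand setting and annotation release are not given in the sources used here. Counts were filtered (filterByExpr), scaled by TMM and tested with edgeR 4.0.16 (glmQLFit robust, glmQLFTest, condition alone, R 4.3.3), adjusted by Benjamini-Hochberg over 14146 genes, and called at 0.05. Standard errors were derived as the absolute fold change over the root of F. Levels are CPM on TMM-scaled libraries, and per-mouse medians add 0.5 before the logarithm.

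Alternatives were other scalings, DESeq2 1.42.0, limma 3.58.1 voom with quality weights, other filters, a replicate block, 2 covariates, and leaving out mice. The sets without Control 6 and 7, 1 and 9, or all 4 were chosen after seeing the data. Named genes were all members, the receptors, Ifng, and up to 4 called genes with the smallest p per pathway list and direction. Some results are not reported here. The members and lists were chosen with earlier results of these data known. Positions, exon lengths and 50-base windows come from GENCODE M21. No 2 mice had identical columns, and counting error bounds the noise from below only, since reads carried no molecular identifiers. Figures used Python 3.11.15 and matplotlib 3.10.9.

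Bulk colon does not separate cell types, and the layers of each explant are not stated. With 9 and 8 mice, small differences can be missed, and 27 members not called are not shown to be equal. Some sample descriptions share a first part that may mark a cage, litter or batch. The labels do not give its meaning, and it was not modelled. The covariate scores come from the same counts as the members, so they can take up part of a difference between groups. Protein levels, interferon protein and infection status were not analysed here. Protein identities were not computed.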

Additional observations from a re-analysis of the deposited data

Results flagged for a closer look

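Of 74 groups, 37 members in Control and GWI mice each, 14 held a mouse far from its neighbours by Dixon's gap ratio on CPM. That rule marks about 1 in 20 groups by chance if values are normal and groups independent. CPM values can be skewed and members of a mouse can go together, so the true rate is not known here. Values are CPM, with the next highest mouse of the group in brackets, and the cause was not tested.

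Control 8 held 6 of the 14: Isg15 at 9.08 (5.43), Usp18 at 7.89 (4.30), Dhx58 at 8.56 (6.38), Bst2 at 21.6 (15.7), Rtp4 at 15.5 (10.5) and Ifi44 at 4.10 (2.51). Control 1 held 3: Oas1g at 37.3 (11.7), Oasl1 at 53.0 (27.8) and Mx1 at 11.3 (3.06). Control 9 held 2: Ifih1 at 89.7 (63.6) and Samd9l at 363 (192). Control 6 held Ifit3b at 8.64 (6.52), GWI 5 held Oas1g at 32.3 (17.9) and GWI 8 held Bst2 at 18.5 (14). All mice were kept in the fit of the report.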

How the results depend on the processing

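The report has 3 members lower, 7 higher and 3792 of all tested genes called. Members called lower came to 6 with upper-quartile factors, 5 by the DESeq2 Wald test and 6 by limma-voom with quality weights. Members called higher came to 4 with upper-quartile factors, 19 by limma-voom, 0 with the muscle minus epithelium score, 4 with the leukocyte score, and 1 at unadjusted p under 0.05 and absolute log2 fold change over 1. All genes called came to 8076 by limma-voom, 1639 with the muscle score and 342 at that last threshold. Upper-quartile factors split the calls into 2992 lower and 1214 higher, and the muscle score into 1065 and 574. The cause was not tested.

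With 1 mouse left out, members lower ranged from 3 to 4, members higher from 5 to 11 (11 without Control 1), and all genes called from 2781 to 4818.

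The replicate block gave 4 members higher, and all tested genes called came to 2241, as 826 lower and 1415 higher. In the replicate block Ifit1 was at 0.10, Isg15 at 0.0725, Usp18 at 0.009, Eif2ak2 at 0.0278 and Samd9l at 0.42, each with its sign reversed. The replicate numbers do not pair the mice: the correlations of mice with the same number were -0.506, -0.055, 0.015, -0.002, 0.115, -0.123, -0.115 and -0.495, and none matched its own number best.

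Other log2 fold changes with the sign reversed were as follows. By limma-voom, Ifit1 was at 0.27, Mx2 at 0.0292, Isg15 at 0.33, Usp18 at 0.26, Herc6 at 0.0498, Eif2ak2 at 0.19 and Samd9l at 0.74. With the muscle score, Mx1 was at -0.0636, Zbp1 at -0.47, Parp9 at -0.10, Rtp4 at -0.33, Ifngr2 at -0.18 and Ifitm3 at 0.0471. With the leukocyte score, Isg15 was at 0.062, Usp18 at 0.11 and Rtp4 at -0.0105. With upper-quartile factors Rtp4 was at -0.062, and with library size alone Samd9l was at 0.0406. Without Control 5 and 6, Cmpk2 was at 0.0176 and Rtp4 at -0.0467. In sets chosen after seeing the data, Rtp4 was at -0.0359 without Control 6 and 7, Isg15 at 0.021 and Samd9l at 0.36 without Control 1 and 9, and Herc6 at 0.0055, Samd9l at 0.39 and Rtp4 at -0.0364 without all 4. The cause was not tested.

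With 1 mouse left out, Isg15 ranged from -0.19 to 0.16, Usp18 from -0.24 to 0.15, Cmpk2 from -0.0805 to 0.0677, Samd9l from -0.12 to 0.32 and Rtp4 from -0.035 to 0.22.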
